A study of Mus musculus with 5 samples.

Results

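*Celf1*, the gene removed in these mice, its paralog *Celf2* and the feature numbered directly after *Celf1* were followed in RNA from mouse heart. They were chosen by identity from the numbered genes of the deposited values, and are 3 of the 28416 genes measured. The feature carries only the name of a cDNA clone, which is not given here, and is called the neighbouring feature. RNA came from the cardiac ventricle of male mice of a mixed 129v/BL6 strain, from which atria and blood had been removed. At postnatal day 3 (PN3) there were 2 *Celf1* -/- and 2 *Celf1* +/+ libraries, and at PN38 there was 1 *Celf1* +/+ library. The knockout was constitutive, not limited to heart, and the sources used here do not give which part of the gene was deleted. The comparison of genotypes at PN3 asks what changes when CELF1 is lost in the newborn heart, and the comparison of PN38 with PN3 follows normal postnatal development. Both comparisons use the same *Celf1* +/+ libraries at PN3.

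CELF proteins bind GU-rich stretches of RNA through RNA recognition motifs. They are known as regulators of exon choice, and CELF1 also promotes the decay of mRNAs that it binds. CELF1 and CELF2 are the main members of the family present in heart, and CELF1 protein is known to fall there after birth and to be raised in myotonic dystrophy.

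*Celf1* spans chr2:90780539-90859654 of mm9 on the plus strand (79116 bases), and *Celf2* spans chr2:6460751-7002348 on the minus strand (541598 bases). GENCODE vM1 annotates 8 protein coding transcripts of *Celf1*, from 2178 to 7851 bases, and 10 of *Celf2*, from 493 to 8875 bases. The coding sequences of transcripts Celf1-001 (1464 bases) and Celf2-001 (1455 bases) were identical at 1072 of 1443 aligned bases, or 74.3%. The sequences below are shown because a fragment can be counted for the wrong paralog only where the mRNAs are alike. They hold the longest run common to any of these *Celf1* and any of these *Celf2* protein coding transcripts, 23 bases in capitals. Each lies within 30 bases of the coding sequence, read 5′ to 3′ on the strand of the gene from GENCODE vM1 transcripts.
Celf1: aacCTGAGCAAGTGCTTTGGTTTTGTaagt
Celf2: aatCTGAGCAAGTGCTTTGGTTTTGTtagc
The *Celf1* stretch joins the last 19 bases of exon 12 (chr2:90852981-90852999) to the first 11 bases of exon 13 (chr2:90853395-90853405), the last of 13 exons of Celf1-001. The *Celf2* stretch joins exons 11 (chr2:6470878-6470896) and 12 (chr2:6468249-6468259) of the 13 exons of Celf2-001 on the minus strand. The transcripts shared 7 different stretches of 20 bases and 0 of 24 bases. No read of 24 bases or more could therefore match a GENCODE vM1 protein coding transcript of both genes in the same orientation without a mismatch. Matches in opposite orientations were not searched. Other transcripts, among them the UCSC transcripts of the deposited values, were not compared.

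The position of the neighbouring feature is not given in the values used here. It has 1 transcript of 1820 bases and the number and the transcript name that follow those of *Celf1*. No other GENCODE vM1 gene lies within the span of *Celf1*. The nearest annotated gene downstream is the pseudogene *Gm13777*, 11281 bases away, followed by *Rapsn*, which encodes a protein of the neuromuscular synapse, at 16123 bases, and the nearest upstream is *Ptpmt1*, a mitochondrial phosphatase gene, at 22124 bases.

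Levels are given as FPKM, fragments relative to transcript length and library size, which the authors obtained with RSEM. All 3 genes had over 1 FPKM in each library, the minimum for testing. *Celf1* was sharply lower in *Celf1* -/- ventricles but remained measurable. In the *Celf1* -/- libraries *Celf1* stood at 2.61 FPKM (replicate 1) and 3.03 FPKM (replicate 2). The level was 58.40 and 57.82 FPKM in *Celf1* +/+ ventricles of PN3, and 28.38 FPKM at PN38. Both *Celf1* -/- libraries were far below every *Celf1* +/+ library, and the PN38 library lay between the genotypes of PN3. Such separation downwards at PN3 was seen for 30.3% of the tested genes.

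Behind the *Celf1* -/- values stood 843 fragments (95% exact Poisson interval 787 to 902) in replicate 1 and 1020 fragments (958 to 1085) in replicate 2. The *Celf1* +/+ libraries held 16570 and 15465 fragments of *Celf1* at PN3 and 6813 at PN38. Counting error was therefore small beside the difference between genotypes. These intervals cover counting error only.

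The neighbouring feature followed *Celf1* in every library. Its level was 3.02 and 3.10 FPKM with *Celf1* removed, from 666 and 714 fragments. In *Celf1* +/+ ventricles it was 55.39 and 56.95 FPKM at PN3, from 11775 and 11483 fragments, and 33.09 FPKM at PN38, from 5900. As with *Celf1*, the genotypes did not overlap, and the PN38 library lay between them.

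**Figure D1:**
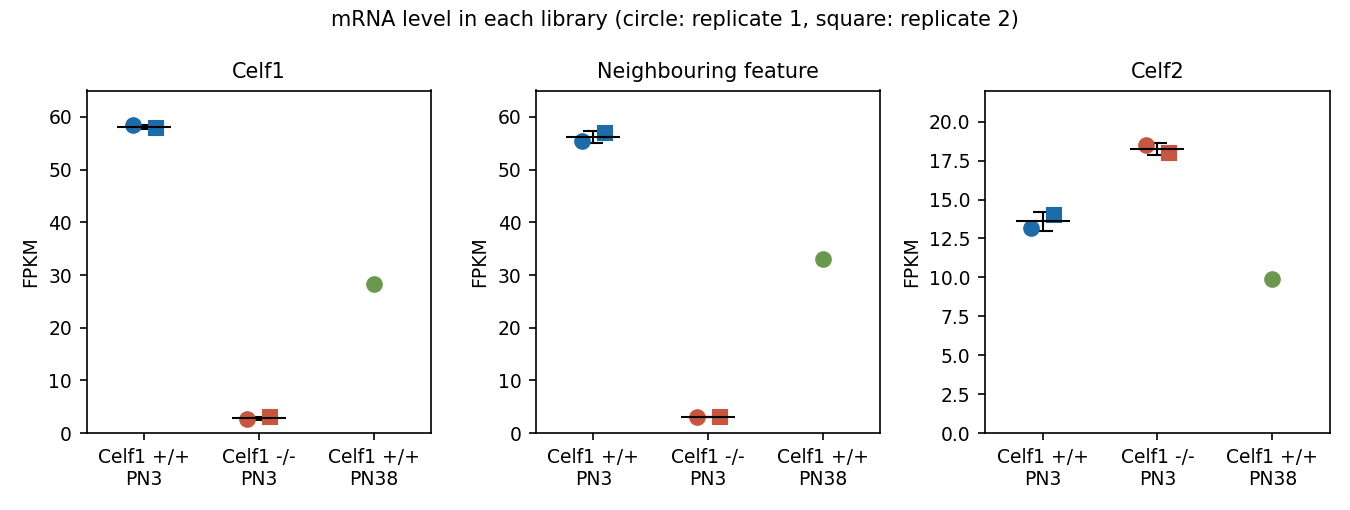
Level in FPKM (vertical axes from 0) of *Celf1*, the neighbouring feature and *Celf2* in each of the 5 libraries, grouped by genotype and age; circles are replicate 1, squares replicate 2, and black lines the mean ± SD of 2 libraries. *Celf1* and the neighbouring feature lie at 2.61 to 3.10 FPKM in *Celf1* -/- ventricles and at 55.39 to 58.40 FPKM in *Celf1* +/+ ventricles at PN3, while *Celf2* is highest in *Celf1* -/- ventricles.

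Set against the mean of the *Celf1* +/+ libraries at PN3, 4.85% of the *Celf1* level and 5.45% of the level of the neighbouring feature remained in *Celf1* -/- ventricles. Over the 4 pairs of single libraries, which share libraries and are not independent, the residual share ran from 4.47% to 5.24% for *Celf1* and from 5.30% to 5.60% for the neighbouring feature. In TPM, which scales each library to the same sum over genes, the shares were 4.82% and 5.41%. In CPM (counts scaled to the library total) after TMM normalization, which scales libraries so that most genes do not differ, they were 5.41% and 5.53%.

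In edgeR's quasi-likelihood test across 12502 genes, with Benjamini-Hochberg adjustment, the log2 fold change at PN3 was −4.21 for *Celf1* (SE 0.0885, adjusted p = 2.7e-04). It was −4.18 for the neighbouring feature in the same edgeR test (SE 0.0680, adjusted p = 1.4e-04). Of all tested genes, 0.0480% passed an FDR of 0.05 as lower in *Celf1* -/- ventricles, 6 genes in all, among which are these. By unadjusted p they ranked 1 (the neighbouring feature) and 2 (*Celf1*) of the 12502. The study calls the PN3 libraries of a genotype biological replicates, and the labels do not name the animals or say how many went into each library. The p-values measure the spread between these libraries. The 5 numbered features before *Celf1* and the 5 after the neighbouring feature showed no decrease of this size. Of these 10, 9 were tested, with log2 fold changes from −0.46 to 0.14, and 0 passed an FDR of 0.05 in edgeR's quasi-likelihood test (lowest adjusted p = 0.15). Of the 9, 2 had an unadjusted p under 0.05, beside 23.6% of all genes. EdgeR's exact test called 1 of the 9, beside 6.47% of all genes, and DESeq2 called 1, beside 11.6%.

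The residual level still placed *Celf1* among expressed genes. Of the genes with at least 1 FPKM, 12.9% and 15.0% were below *Celf1* in the *Celf1* -/- libraries, against 88.3% and 88.4% for *Celf1* +/+ ventricles of PN3 and 78.4% of PN38. The neighbouring feature stood above 15.3% and 15.4% of such genes in *Celf1* -/- and above 87.7% and 88.2% in *Celf1* +/+ ventricles at PN3. The FPKM of *Celf1* relative to that of the neighbouring feature came to 0.864 and 0.977 with *Celf1* removed. In *Celf1* +/+ ventricles this ratio came to 1.05 and 1.02 at PN3 and to 0.858 at PN38. Counted in fragments, which do not use length, the neighbouring feature came to 0.790 and 0.7 of *Celf1* in *Celf1* -/- ventricles. It came to 0.711 and 0.743 in *Celf1* +/+ ventricles of PN3, so the genotypes overlapped, and to 0.866 at PN38.

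The estimated mean transcript length behind the residual signal of *Celf1* was greater. RSEM reports for each gene a length weighted by the estimated share of each transcript, and *Celf1* has 5 transcripts in the deposited values. Its weighted length was 2586 and 2584 bases in *Celf1* -/- ventricles, 2370 and 2356 bases in *Celf1* +/+ ventricles of PN3 and 2392 bases in those of PN38. Both *Celf1* -/- values lay above all *Celf1* +/+ values. The mean difference at PN3 was 222 bases, or 9.38%. Of 8138 genes with several transcripts and at least 1 FPKM, 21.1% were longer in *Celf1* -/- ventricles without overlap, so absence of overlap alone is common. A shift as large as that of *Celf1* in either direction was found for 59 of these genes, or 0.725%. With 2 libraries against 2, an exact two-sided permutation test gave p = 0.333, the smallest it can give. Which transcripts changed was not read from these gene values.

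*Celf2* was at a 1.34-fold level in *Celf1* -/- ventricles, a difference that passed some tests and not others. Its level was 18.53 and 17.99 FPKM with *Celf1* removed, from 18758 and 19049 fragments. In *Celf1* +/+ ventricles it was 13.18 and 14.02 FPKM at PN3, from 12464 and 12251 fragments, and 9.90 FPKM at PN38, from 7957 fragments. Both *Celf1* -/- libraries were above both *Celf1* +/+ libraries of the same age, and the PN38 library was the lowest. Such separation upwards was seen for 26.8% of the tested genes.

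The mean of *Celf2* was 18.3 ± 0.382 FPKM (SD, n = 2) in *Celf1* -/- and 13.6 ± 0.594 FPKM (SD, n = 2) in *Celf1* +/+ ventricles at PN3. Single pairs of libraries placed the *Celf1* -/- level between 128% and 141% of the *Celf1* +/+ level. The log2 fold change on counts was 0.51 (SE 0.0656, unadjusted p = 4.5e-04, adjusted p = 0.080 in edgeR's quasi-likelihood test), which did not pass an FDR of 0.05. Of the tested genes, 0.00800% passed that threshold as higher, and 2.94% had a higher log2 fold change than *Celf2*. The same difference passed in edgeR's exact test (adjusted p = 3.2e-04), which called 3.07% of genes higher, and in DESeq2 (adjusted p = 7.1e-09), which called 5.86% higher.

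The weighted length of *Celf2* was also greater in *Celf1* -/- ventricles, at 7728 and 7752 bases against 7488 and 7298 bases in *Celf1* +/+ ventricles at PN3. The PN38 library, at 7609 bases, lay between the genotypes of PN3. *Celf2* has 13 transcripts in the deposited values. The mean shift between genotypes was 347 bases, or 4.69%, and 2.56% of the genes with several transcripts shifted as much in either direction (exact permutation p = 0.333, the smallest possible). A longer weighted length lowers FPKM for the same number of fragments, and in TMM-normalized CPM, which do not use length, the *Celf2* level of *Celf1* -/- ventricles was 143% of that of *Celf1* +/+ ventricles.

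**Figure D2:**
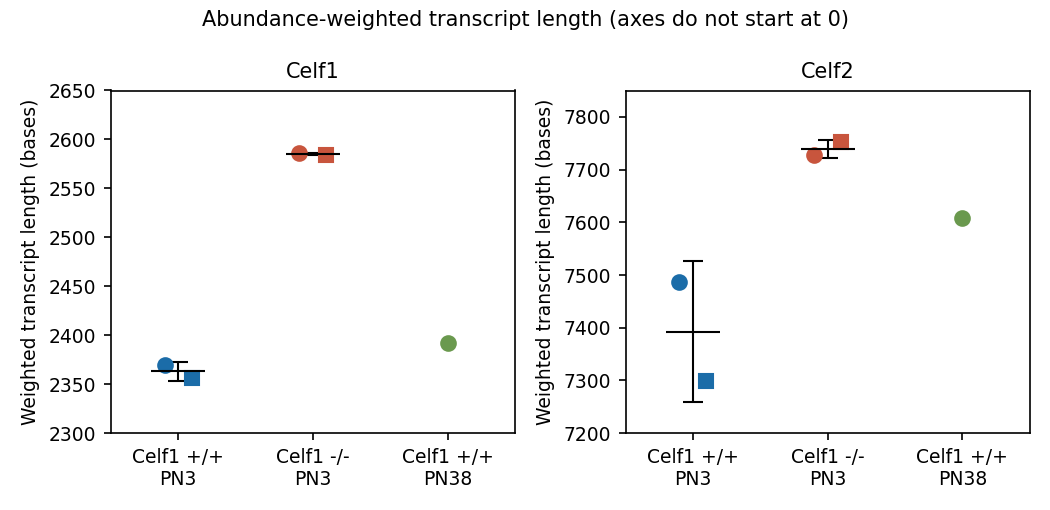
Abundance-weighted transcript length in bases (vertical axes do not start at 0) of *Celf1* and *Celf2* in each library; circles are replicate 1, squares replicate 2, and black lines the mean ± SD of 2 libraries. For both genes the 2 *Celf1* -/- libraries lie above all *Celf1* +/+ libraries.

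The difference in *Celf2* was small beside the loss of *Celf1*. Mean *Celf2* was 4.66 FPKM higher in *Celf1* -/- than in *Celf1* +/+ ventricles at PN3, while *Celf1* was 55.3 FPKM lower, so the first came to 8.43% of the loss. The sum of *Celf1* and *Celf2* came to 21.14 and 21.02 FPKM with *Celf1* removed, to 71.58 and 71.84 FPKM in *Celf1* +/+ ventricles of PN3, and to 38.28 FPKM at PN38. *Celf2* made up 87.7% and 85.6% of that sum in *Celf1* -/- libraries, 18.4% and 19.5% in those of *Celf1* +/+ at PN3 and 25.9% at PN38. The ratio of *Celf2* to *Celf1* was 6.52 ± 0.822 (SD, n = 2) in *Celf1* -/- and 0.234 ± 0.0119 (SD, n = 2) in *Celf1* +/+ ventricles at PN3, and 0.349 at PN38. *Celf1* was thus the more abundant mRNA of the pair in *Celf1* +/+ ventricles at both ages and *Celf2* in *Celf1* -/- ventricles. These are levels of mRNA per length, and protein was not measured in these libraries.

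**Figure D3:**
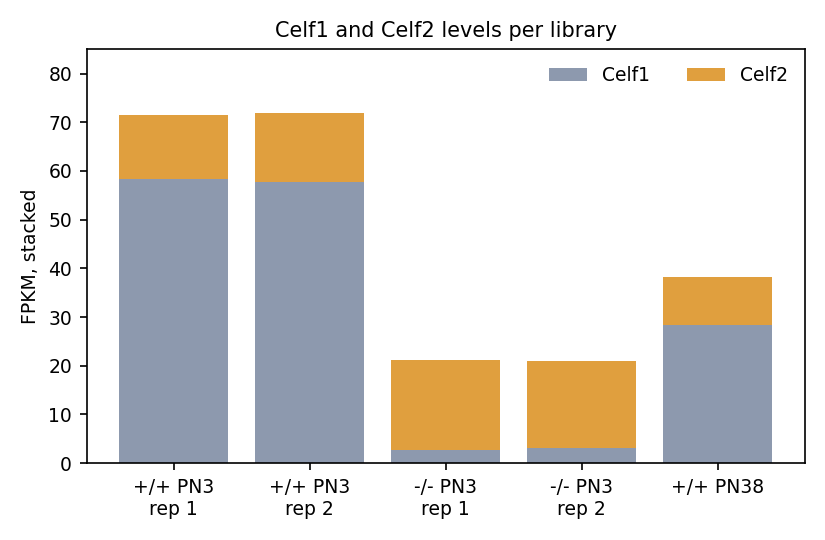
Stacked levels of *Celf1* (grey) and *Celf2* (orange) in FPKM, with 1 bar for each library and the axis from 0. The sum falls from 71.58 and 71.84 FPKM in *Celf1* +/+ to 21.14 and 21.02 FPKM in *Celf1* -/- ventricles at PN3, and is 38.28 FPKM at PN38.

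Between PN3 and PN38 in *Celf1* +/+ ventricles, *Celf1* and the neighbouring feature were lower at PN38 under each of the 5 scalings plotted, and the direction of *Celf2* depended on the scaling. By FPKM, PN38 held 48.8% of the mean PN3 level of *Celf1*, 58.9% of that of the neighbouring feature and 72.8% of that of *Celf2*. All 3 lay below both PN3 libraries at PN38, as did 69.9% of the 12816 genes tested. The log2 ratio of FPKM was −1.03 for *Celf1*, −0.76 for the neighbouring feature and −0.46 for *Celf2*, and the median of all genes tested was also −0.46. With a single library at PN38 the spread at that age is unknown, and the test took it from PN3.

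The TMM factor was 0.787 at PN38 and 1.04 to 1.08 in the PN3 libraries. In TMM-normalized CPM, *Celf1* stood at 122 and 117 in *Celf1* +/+ ventricles of PN3 and at 80.3 in those of PN38. *Celf2* stood at 91.4 and 92.7 at PN3 and at 93.7 at PN38 on the same scale, so its 3 *Celf1* +/+ libraries differed little, while its *Celf1* -/- libraries stood at 135 and 128. The log2 fold change was −0.57 for *Celf1* (SE 0.0970, adjusted p = 0.0049 in edgeR's quasi-likelihood test), −0.32 for the neighbouring feature (SE 0.0707, adjusted p = 0.012) and 0.03 for *Celf2* (SE 0.0804, adjusted p = 0.79). Of all genes, 32.6% passed an FDR of 0.05 as lower, and the median log2 fold change was −0.02. Scaled by library totals alone, the log2 fold change of *Celf2* was −0.42 (adjusted p = 0.0059 in edgeR's test), where the median gene was at −0.46 and 55.8% of genes were called lower and 16.6% higher. With limma on log2(FPKM + 1) it was −0.42 (adjusted p = 0.0077), beside a median of −0.40 and 55.9% of genes called lower. With limma on log2(TPM + 1) it was −0.66 (adjusted p = 0.0020), beside −0.63 and 66.9%. Relative to the median gene, the log2 fold change lay between −0.62 and −0.55 for *Celf1* over the 5 scalings, between −0.35 and −0.30 for the neighbouring feature and between −0.03 and 0.05 for *Celf2*.

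**Figure D4:**
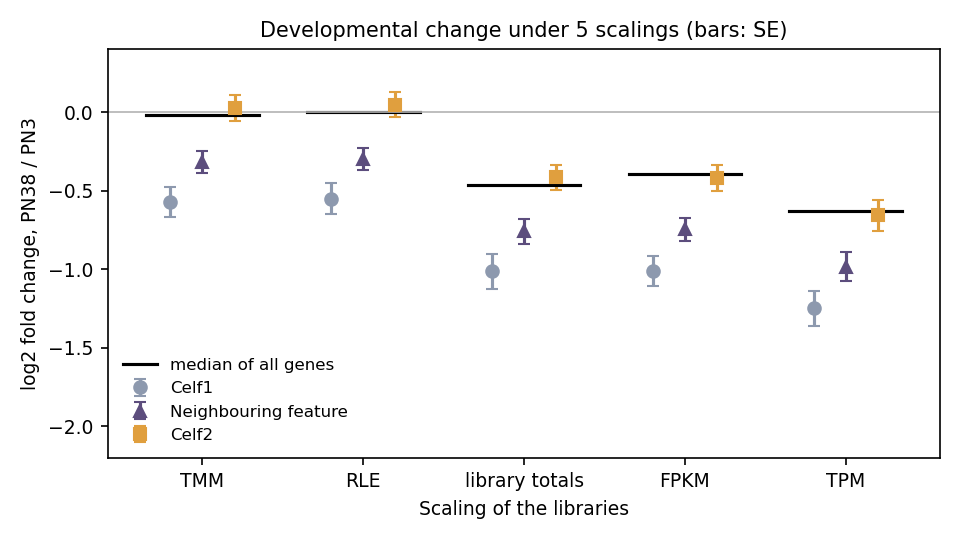
Log2 fold change of PN38 over PN3 (vertical axis; points with SE bars) of *Celf1*, the neighbouring feature and *Celf2* under 5 scalings of the libraries (horizontal axis), with the median of all genes tested as a black line; FPKM and TPM are on the log2(value + 1) scale. *Celf2* follows the median gene, near 0 with TMM and at −0.42 with library totals, while *Celf1* lies below the median under all 5.

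Other RNA-binding proteins were read from a list of 103 genes, of which 39 could be named. Names come from tables in which the study listed genes as changed in these samples, so the counts are not independent evidence of a direction. At PN3, 0 of the 39 passed an FDR of 0.05 in edgeR's quasi-likelihood test, where 0.0560% of all genes did. The unadjusted p was under 0.05 for 20 of them and for 23.6% of all genes. EdgeR's exact test called 8 of them and 6.47% of all genes, and DESeq2 called 16 and 11.6%. The median log2 fold change of the 39 was 0.15, beside −0.00 over all genes, with 32 positive and 7 negative values. In development, 36 of 38 tested were called lower at PN38 and 2 higher, beside 32.6% and 31.0% of all genes, and the median was −0.88 beside −0.02.

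None of *Celf3* to *Celf6* could be named. *Rbfox1*, a splicing regulator of muscle and brain, stood at 3.76 and 4.08 FPKM with *Celf1* removed, at 6.64 and 8.96 FPKM in *Celf1* +/+ ventricles of PN3, and at 8.37 FPKM at PN38. The *Celf1* -/- libraries lay below all others (log2 fold change −0.97, adjusted p = 0.088 in edgeR's quasi-likelihood test). At PN3, 30.3% of the tested genes were lower in *Celf1* -/- ventricles without overlap. The difference passed an FDR of 0.05 in edgeR's exact test (adjusted p = 1.1e-06), which called 6.47% of all genes. It also passed in DESeq2 (adjusted p = 3.2e-07), which called 11.6%. With 1 library left out, the log2 fold change of *Rbfox1* ran from −1.16, without *Celf1* +/+ replicate 1, to −0.76, without *Celf1* +/+ replicate 2. At PN38 its log2 fold change was 0.54 (adjusted p = 0.037 in edgeR's quasi-likelihood test). That call was lost with library totals (0.10, adjusted p = 0.64 in edgeR's test), with limma on log2(FPKM + 1) (0.10, adjusted p = 0.62) and with limma on log2(TPM + 1) (−0.11, adjusted p = 0.63). *Mbnl3*, of the muscleblind family of splicing regulators, stood at 1.46 and 1.66 FPKM with *Celf1* removed and at 1.54 and 1.30 FPKM in *Celf1* +/+ ventricles of PN3, which overlapped, and fell to 0.18 FPKM at PN38 (log2 fold change −2.58, adjusted p = 4.6e-04 in edgeR's test).

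The largest log2 fold changes of other listed genes at PN3 were 0.72 for *Igf2bp1*, an mRNA-binding protein of embryonic tissue, −0.60 for *Msi1*, a translational regulator of stem cells, 0.50 for *Rbm3*, a cold-induced RNA-binding protein, and 0.48 for *Eif2c2*, which encodes Argonaute 2. None passed an FDR of 0.05 in edgeR's quasi-likelihood test. *Igf2bp1* lay near the minimum for testing, which it reached only in *Celf1* -/- ventricles. It stood at 1.31 and 1.2 FPKM there and at 0.81 and 0.74 FPKM in *Celf1* +/+ ventricles of PN3. Its log2 fold change was smaller with limma, at 0.35 on log2(FPKM + 1) and 0.63 on log2(FPKM + 0.1). The value for *Msi1* turned to 0.061 when *Celf1* +/+ replicate 2 was left out. Leaving out *Mbnl3* and *Rbfox1*, given above, the largest in development were −4.74 for *Igf2bp3*, of the same family as *Igf2bp1*, −4.07 for *Msi1*, −2.18 for *Rbm3* and −1.40 for *Fmr1*, a translational repressor, each past an FDR of 0.05 in edgeR's test. At PN38 *Igf2bp3*, *Msi1* and *Mbnl3* stood at 0.23, 0.1 and 0.18 FPKM, below the minimum for testing, which they reached only at PN3. With limma on log2(FPKM + 1) their log2 fold changes in development were smaller in size, at −2.74, −1.52 and −1.03.

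Among 2544 named genes, those whose profile over the 5 libraries was nearest that of *Celf1*, by the Euclidean distance of log2(FPKM + 1) centred on the *Celf1* +/+ libraries at PN3, were the beta globin gene *Hbb-b1* (distance 3.36), the calcium channel subunit gene *Cacng6* (3.74) and the transporter gene *Abca4* (3.96). The neighbouring feature was at 0.342. No named gene was therefore as close to *Celf1* as the neighbouring feature. Only genes that the study listed as changed could be named. *Celf1* and the neighbouring feature ranked 2 and 3 from the lowest log2 fold change at PN3 of 12502 genes, so few profiles could lie near. *Celf2* had much closer profiles, *Trim47* (0.0811), a ubiquitin ligase gene, *Sestd1* (0.101) and *Anxa4* (0.132), an annexin gene. *Trim47* stood at 33.79 and 31.58 FPKM with *Celf1* removed, at 24.84 and 25.24 FPKM in *Celf1* +/+ ventricles of PN3 and at 17.93 FPKM at PN38, the same order of groups as *Celf2*.

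Total expected counts ran from 108044284 at PN38 to 139769909, and from 11883 to 12547 genes reached 1 FPKM. Of 40 markers of heart and other cell types, 17 could be named. Their names also come from tables in which the study listed genes as changed, so they are not a neutral sample of markers. Of the 17, 1 passed an FDR of 0.05 at PN3, where 0.0560% of all genes did. It was the atrial peptide gene *Nppa* (adjusted p = 0.046 in edgeR's quasi-likelihood test). Of 9 ventricular muscle markers, *Myh7* and *Ryr2* could be named and were present in every library. *Ryr2* stood at 75.1 and 73.9 FPKM with *Celf1* removed and at 108 and 110 FPKM in *Celf1* +/+ ventricles of PN3 (adjusted p = 0.080 in edgeR's test), and *Myh7* overlapped between genotypes. Summed over 4 atrial markers, the level at PN3 was 2332 to 2572 FPKM in *Celf1* -/- and 758 to 1079 FPKM in *Celf1* +/+ ventricles. Within these sums *Nppa* stood at 1857 and 1763 FPKM against 559 and 453 FPKM, while *Myl7* and *Sln* overlapped between genotypes. *Bmp10* stood at 3.55 and 12.43 FPKM against 0.19 and 2.61 FPKM (adjusted p = 0.25 in edgeR's quasi-likelihood test). *Nppa* and *Bmp10* were thus higher without overlap, beside 26.8% of the tested genes. Summed over 3 erythroid markers, the level was 1552 to 3317 FPKM in *Celf1* -/- and 4946 to 5155 FPKM in *Celf1* +/+ ventricles. The genotypes did not overlap for any of the 3, beside 30.3% of the tested genes lower without overlap. None of the 3 passed an FDR of 0.05 in edgeR's quasi-likelihood test. Over 4 fibroblast markers it was 764 to 814 FPKM in *Celf1* -/- and 868 to 1008 FPKM in *Celf1* +/+ ventricles. These 4 did not move together. *Dcn* was lower, at 247 and 254 FPKM against 331 and 378 FPKM. *Col1a1* and *Col1a2* overlapped between genotypes, and *Tcf21* was higher, at 43.3 and 45.3 FPKM against 38.1 and 41.8 FPKM. The 1 immune marker named, *Cd68*, stood at 2.38 and 3.19 FPKM against 4.71 and 5.39 FPKM, and the 1 lung marker named, *Scgb3a2*, at 1.52 and 7.0 FPKM against 0.05 and 0.12 FPKM. Over 2 smooth muscle markers the summed level was 673 to 727 FPKM in *Celf1* -/- and 466 to 474 FPKM in *Celf1* +/+ ventricles. The part of these cell types in the differences of *Celf1* and *Celf2* was not tested, and in bulk tissue fewer cells of a type cannot be told apart from less RNA per cell.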

How the data were processed

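Per the labels, paired-end libraries were sequenced on a HiSeq2000, and the submitters' processing notes name TopHat2 2.02 and RSEM 1.2.4 on mm9. The methods of the study name Ensembl models, while the deposited genes list UCSC transcripts. The authors deposited RSEM expected counts (not normalized), FPKM, TPM and gene lengths in bases, which RSEM weights by transcript share. Of the 15 expected counts of the members, 13 were whole to within 0.005. Expected counts were rounded and tested with edgeR 4.0.16 (R 4.3.3; TMM, glmQLFit, glmQLFTest, Benjamini-Hochberg over all genes tested, FDR 0.05). The fit at PN3 used the 4 libraries of that age and the 12502 genes reaching 1 FPKM in each library of either genotype. The fit of development used all 5 libraries and 12816 genes. DESeq2 1.42.0, edgeR's exact test, limma 3.58.1 on FPKM and TPM with a pseudocount of 1, other filters and scalings, a replicate block and fits without 1 library were alternatives. Genes were named by matching their FPKM to those the study lists, for 2634 of 28416 genes. Named genes were the members, all listed RNA-binding proteins by count, those with the largest changes, and the 3 nearest profiles. Members and lists were chosen with earlier results of these data known. Scripts were tested on simulated data. Columns of comparisons by the authors were not used. Tables were handled with pandas 2.3.3 and drawn with matplotlib 3.10.9, and coding sequences were aligned with Biopython 1.88.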

Additional observations from a re-analysis of the deposited data

How the results depend on the processing

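*Celf1* and the neighbouring feature kept their direction and passed an FDR of 0.05 in both comparisons under every alternative run. The number of genes called at PN3 moved most, from 7 to 1449 with DESeq2, 809 with edgeR's exact test, 2 with filterByExpr, 16 with no filter, 26 with all 5 libraries, and 3 to 93 with 1 library left out. Of the RNA-binding protein list, 8 genes were called by the exact test and 16 by DESeq2 at PN3, against 0. For *Celf2* at PN3, the log2 fold change of 0.51 passed with DESeq2 and with the exact test (0.51 in each), and without 1 library it ran from 0.47 to 0.55 (adjusted p between 0.069 and 0.27, edgeR's quasi-likelihood test). In development *Celf2* turned to −0.42 with library totals, −0.42 with log2(FPKM + 1) and −0.66 with log2(TPM + 1), and *Rbfox1*, called at 0.54, to 0.10, 0.10 and −0.11 under the same alternatives, none past the threshold, while *Msi1* at PN3 ran from −1.05 to 0.061 with 1 library left out, the last without *Celf1* +/+ replicate 2. The alternative scaling by library totals moved the genes called in development from 4175 lower and 3975 higher to 7152 lower and 2122 higher. The residual *Celf1* share was 5.41% in TMM-normalized CPM. Same-numbered libraries of PN3 deviated together with a correlation of 0.192 across genes, and the methods of the study compare genotypes within litters, but no source says which libraries shared a litter, and with 2 pairs the numbers were not taken as pairs. With the replicate block, 6 genes were called, and *Celf1* (−4.21, adjusted p = 0.0097), the neighbouring feature (−4.18, adjusted p = 0.0045) and *Celf2* (0.51, adjusted p = 0.059) in edgeR's test stayed on the same side of the threshold. At these depths counting error was small for the members, and the 2 libraries per genotype and 1 at PN38 set the precision.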
